A study of Mus musculus with 8 samples.

Results

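Ras and Rap are small GTPases that switch between a GTP-bound active state and a GDP-bound inactive state at the plasma membrane and on endosomes. Exchange factors load them with GTP, GTPase-activating factors speed up GTP hydrolysis, and the balance of these opposing classes sets the signal to kinases such as ERK. In cortical neurons these regulators couple synaptic calcium, cAMP and growth factor receptors to spine growth, adhesion and gene expression.

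Described here are 10 of the 11992 genes with a gene value in the series: the Ras exchange factors Rasgrf1, Rasgrp1, Sos1 and Sos2, the Ras GTPase-activating factors Rasa1 and Nf1, the Rap exchange factor Rapgef2, and the Rap GTPase-activating factors Rap1gap, Rap1gap2 and Sipa1l1. They were selected on their gene values and exon-level indices in Nova2 KO against wild type cortex. Their probe sets were those whose annotation names exactly 1 of them, 369 of 228454 probe sets that name 1 gene, with Rap1gap2 listed under its older symbol Garnl4. Of the 369, 353 exceeded the filter on dim signal (a mean over all arrays above 5.86 log2) and 16 did not.

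Total RNA came from P10 cortex of CD1 mice, 4 of them Nova2 KO (lacking the neuronal splicing regulator Nova2) and 4 wild type, and each biological replicate was run on 1 Affymetrix exon array. An exon array reads several short probe sets along each gene. The labels give neither the deleted part of Nova2 nor the sex or litter of the mice, and no cell type to which the knockout is limited. In bulk cortex, fewer cells of a type and less RNA per cell cannot be told apart. The study compared transcript and exon signals with and without Nova2.

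Nova2 itself was examined first. Its probe set 5294108 read 6.28, 7.17, 7.26 and 6.73 log2 on Nova2 KO arrays 1 to 4, against 8.87, 8.65, 8.53 and 8.66 log2 on wild type arrays 1 to 4, so the groups did not overlap. The other 15 Nova2 probe sets differed by between -0.29 and 0.70 log2, and 4414499 (0.70 log2) and 4355944 (0.40 log2) were higher in Nova2 KO without overlap. The Nova2 gene value, a median over 16 probe sets, differed by -0.016 log2 (SE 0.11). Array medians ran from 7.06 to 7.37 log2 in Nova2 KO and from 7.02 to 7.37 log2 in wild type. Xist was high on 2 arrays of each group. Of 8 genes listed as markers of cortical projection neurons 5 had a gene value, and their mean lay between 9.42 and 9.70 log2 in Nova2 KO and between 9.40 and 9.62 log2 in wild type. Of 11 striatal markers 6 had a gene value, at 9.61 to 10.20 log2 in Nova2 KO and 9.85 to 9.92 log2 in wild type. Within that list Tac1 (0.51 log2) and Penk (-0.47 log2) had groups apart in opposite directions, and neither passed the threshold. The hippocampal, thalamic, choroid plexus and interneuron lists also had means whose ranges overlapped. In these lists Wfs1 (hippocampus, -0.45 log2) and Prkcd (thalamus, 0.27 log2) had groups apart, and neither passed.

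The gene value is the median log2 signal over the kept probe sets of a gene. The exon-level index subtracts that gene value from each probe set's log2 signal, array by array. It is higher where the probe set is brighter, and also where the gene value is lower and the probe set is not. Both were fitted with limma as Nova2 KO minus wild type over all genes or all probe sets, with the threshold at a Benjamini-Hochberg adjusted p of 0.05. The 10 genes were chosen by this contrast. Their differences are therefore given as a description, with the standard error (SE) and the side of the threshold but without a p, and they support nothing beyond themselves.

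At the gene level, Rasgrf1 was the member that stood apart, and the other 9 had groups that overlapped. It was 1 of 10 members past the threshold, and 1 of 10 lower without overlap. Over all genes, 0.208% passed in either direction and 0.117% passed as lower, while 2.5% were lower and 5.06% higher without overlap, 7.56% in all. In all, 7 members had a lower and 3 a higher gene value, with a median difference of -0.088 log2. The median over all genes was 0.022 log2, with quartiles at -0.084 and 0.13 log2.

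**Figure D1:**
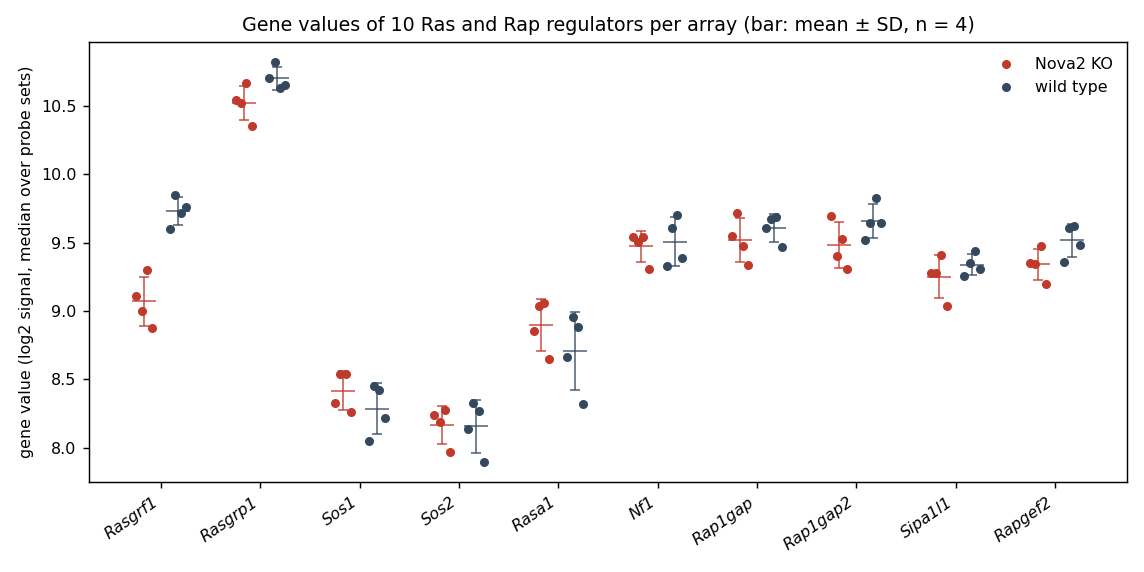
Gene values (log2 signal, median over probe sets) of the 10 regulators on each of the 4 Nova2 KO arrays (red, left of each pair) and the 4 wild type arrays (dark, right); horizontal bars are means and whiskers SD. Rasgrf1 is the gene whose groups are apart, with Nova2 KO between 8.88 and 9.30 log2 and wild type between 9.60 and 9.85 log2.

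Rasgrf1 encodes a calcium- and calmodulin-responsive exchange factor for Ras, enriched in neurons and coupled to NMDA receptors, and in the mouse it is an imprinted gene expressed mainly from the paternal allele in young brain. Its gene value was 9.11, 9.00, 9.30 and 8.88 log2 on Nova2 KO arrays 1 to 4, against 9.60, 9.85, 9.72 and 9.76 log2 on wild type arrays 1 to 4. Every Nova2 KO array lay below every wild type array. The means were 9.07 ± 0.18 log2 in Nova2 KO and 9.73 ± 0.10 log2 in wild type (SD, n = 4 each), so that the gene value fell by 0.66 log2 (SE 0.11) and wild type stood 1.58-fold above Nova2 KO. It was among 25 genes past the threshold, of which 14 were lower. The call was lost in 9 of 17 other settings, among them leaving out any 1 of 7 arrays (all but Nova2 KO 3), while the difference stayed between -0.74 and -0.58 log2 in the 17.

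The lower signal was shared by most of its probe sets. Of its 33 probe sets, all of which passed the filter, 31 were lower in Nova2 KO and 24 of them were lower without overlap between the groups. Over all 198965 kept probe sets that name 1 gene, 2.31% were lower and 3.78% higher in signal without overlap, 6.09% in all. Since the genes were chosen by this contrast, nothing is read from that difference. The 29 probe sets with a wild type mean of 8.40 log2 or more differed by between -0.94 and -0.41 log2. The 4 dimmest, at 6.27 to 7.71 log2 in wild type, differed by between -0.21 and 0.30 log2 (this parting was chosen after the values were seen). Probe set 4406438 had the largest difference, -0.94 log2, with 9.30, 9.36, 9.34 and 9.13 log2 on Nova2 KO arrays 1 to 4, against 10.13, 10.23, 10.28 and 10.22 log2 on wild type arrays 1 to 4. The brightest probe set, 4392950, read 10.82, 10.69, 11.05 and 10.51 log2 on Nova2 KO arrays 1 to 4, against 11.14, 11.36, 11.26 and 11.37 log2 on wild type arrays 1 to 4. In both probe sets the groups were apart.

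**Figure D2:**
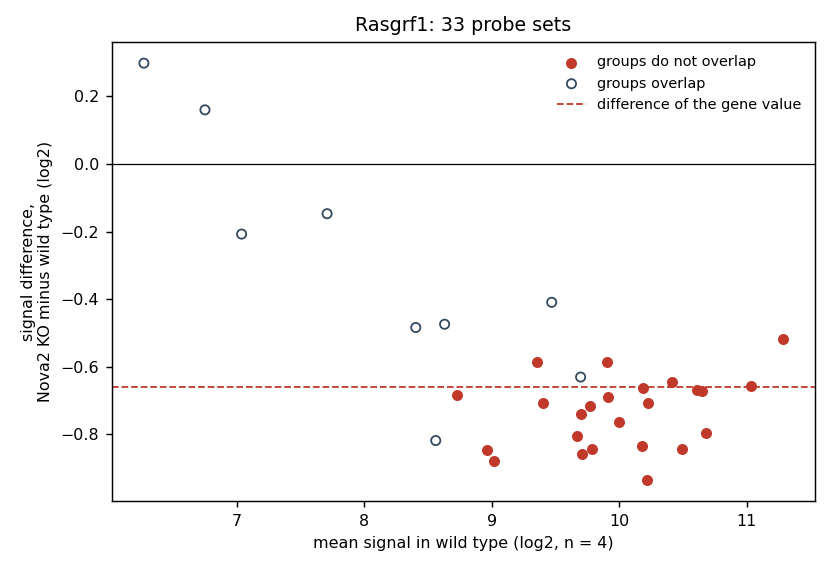
Signal difference (Nova2 KO minus wild type, log2) of each of the 33 Rasgrf1 probe sets against its mean signal in wild type (log2, n = 4); filled points mark probe sets whose groups do not overlap and the dashed line the difference of the gene value (-0.66 log2). The 29 brighter probe sets all lie below 0, and the 4 dimmest lie between -0.21 and 0.30 log2.

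The annotated start of Rasgrf1 is shown, from 250 bases before to 50 bases after it, as RefSeq gives it in the GRCm38.p6 build (chr9:89909525-89909824, plus strand). Any link of this window to the lower signal was not tested. Capitals mark matches on either strand to 5 motifs searched in the window, which were the cAMP response element TGACGTCA, the Egr site GCGTGGGCG, the GC box GGGCGG, the CCAAT box CCAAT and the TATA box TATAAA.
Rasgrf1 promoter: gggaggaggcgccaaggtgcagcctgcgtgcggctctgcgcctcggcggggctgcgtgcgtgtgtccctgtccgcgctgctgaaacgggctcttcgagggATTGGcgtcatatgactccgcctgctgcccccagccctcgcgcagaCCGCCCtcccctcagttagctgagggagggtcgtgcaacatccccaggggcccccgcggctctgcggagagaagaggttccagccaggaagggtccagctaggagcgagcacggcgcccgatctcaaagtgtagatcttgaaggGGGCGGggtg
The window held 2 GC boxes and 1 CCAAT box, and no match to the cAMP response element, the Egr site or the TATA box. It is rich in CG dinucleotides, with 26, against a median of 7 over 32851 annotated start windows. A GC box occurred in 35.7% of all windows, a CCAAT box in 37.4%, a TATA box in 13.6%, a cAMP response element in 1.79% and an Egr site in 0.612%. All 10 genes had at least 1 window in the table, 21 windows together, of which 14 held a GC box, 4 a CCAAT box, 1 a TATA box and none a cAMP response element or an Egr site. Windows of 1 gene can overlap and hold the same motif, as in Rap1gap, so the 14 are not independent of each other. All of these are matches of letters and not tests of binding.

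Several markers of oligodendrocytes also differed between the groups. Of 13 listed genes 12 were measured, and 11 of them were lower in Nova2 KO (44.6% of all genes were lower). Of the 12, 2 (Mog and Mal, myelin genes) passed as lower, against 0.117% of all genes. Groups were apart as lower for 5 of the 12, against 2.5% of all genes. The mean gene value of the list lay between 8.76 and 8.99 log2 in Nova2 KO and between 9.16 and 9.29 log2 in wild type. These ranges were apart. Within the list the differences were uneven. Mal (-1.03 log2), Mog (-0.77 log2), Mag (-0.64 log2) and Mobp (-0.58 log2) fell most. Olig1 (-0.11 log2), Olig2 (-0.0075 log2), Pdgfra (-0.10 log2) and Sox10 (0.046 log2) differed least, with overlapping groups. The microglial list (6 of 6 measured) ran from 8.17 to 8.35 log2 in Nova2 KO and from 8.18 to 8.53 log2 in wild type, and the astrocyte list (6 of 7 measured) from 9.45 to 9.74 log2 in Nova2 KO and from 9.66 to 9.76 log2 in wild type. Endothelial markers (5 of 6 measured, all 5 lower) ran from 7.55 to 7.85 log2 in Nova2 KO and from 7.79 to 7.91 log2 in wild type. Of 4 blood markers 2 were measured and both were lower (Alas2 -0.72 and Slc4a1 -0.38 log2), with a list mean of 6.73 to 7.27 log2 in Nova2 KO and 7.18 to 7.97 log2 in wild type. The ranges of these 4 lists overlapped between the groups, and no gene of them passed the threshold. The part of any of these cell types in the Rasgrf1 difference was not tested.

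The other Ras exchange factors had smaller differences. Rasgrp1, which is activated by diacylglycerol and calcium, had gene values of 10.55, 10.52, 10.67 and 10.36 log2 on Nova2 KO arrays 1 to 4, against 10.71, 10.82, 10.63 and 10.66 log2 on wild type arrays 1 to 4. The difference was -0.18 log2 (SE 0.10), below the threshold for a call, and Nova2 KO 3 lay within the wild type range. At the level of probe sets, 21 of 24 were lower in Nova2 KO, 6 of them without overlap (2.31% of all probe sets).

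Sos1 and Sos2 encode the exchange factors that the adaptor Grb2 brings to activated receptor tyrosine kinases. The Sos1 gene value lay between 8.26 and 8.54 log2 in Nova2 KO and between 8.05 and 8.45 log2 in wild type (difference 0.13 log2, SE 0.12), and 25 of 32 kept probe sets were higher. The Sos2 gene value lay between 7.97 and 8.28 log2 in Nova2 KO and between 7.90 and 8.32 log2 in wild type (difference 0.012 log2, SE 0.12). Neither gene passed. For Sos2 17 of 23 kept probe sets were lower although the gene value was not, and the sign of its gene value changed in 8 of 17 other settings.

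Among the Ras GTPase-activating factors, Rasa1 encodes p120 RasGAP, which binds activated receptors, and Nf1 encodes neurofibromin. The Rasa1 gene value was between 8.65 and 9.06 log2 in Nova2 KO and between 8.32 and 8.96 log2 in wild type (difference 0.19 log2, SE 0.15), with 26 of 31 kept probe sets higher and 4 of them without overlap (3.78% of all probe sets). The Nf1 gene value was between 9.31 and 9.54 log2 in Nova2 KO and between 9.33 and 9.70 log2 in wild type (difference -0.035 log2, SE 0.11), and its sign changed in 2 of 17 other settings. Both genes had overlapping groups.

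Rapgef2, a PDZ-domain exchange factor that loads Rap with GTP, had a gene value between 9.20 and 9.48 log2 in Nova2 KO and between 9.36 and 9.62 log2 in wild type (difference -0.17 log2, SE 0.10). The factors that switch Rap off also had overlapping groups. Rap1gap, which inactivates Rap1, differed by -0.090 log2 (SE 0.11), its paralog Rap1gap2 by -0.18 log2 (SE 0.11), and Sipa1l1 (SPAR), a postsynaptic factor that shapes dendritic spines, by -0.086 log2 (SE 0.10). The gene value of Rap1gap lay between 9.34 and 9.72 log2 in Nova2 KO and between 9.47 and 9.69 log2 in wild type. Kept probe sets were lower in 25 of 36 for Rap1gap, in 28 of 34 for Rap1gap2, in 33 of 42 for Sipa1l1 and in 23 of 31 for Rapgef2. None of these 4 genes passed the threshold in any of 17 other settings.

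Within the Nova2 KO group, array 4 had the lowest gene value for 10 of 10 members, and its array median was the lowest of the group (7.06 log2, against 7.24, 7.37 and 7.30 log2 on Nova2 KO arrays 1 to 3). With every array centred on its median, Nova2 KO 4 was lowest for 1 member and Nova2 KO 2 for 7. In wild type the lowest array was array 1 for 6 members, array 4 for 3 and array 3 for 1. The median of wild type 4 was the lowest of any array (7.02 log2). With centring, wild type arrays 1 to 4 were lowest for 3, 3, 2 and 2 members.

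Exon-level differences were looked at next, since Nova2 acts on splicing. No member probe set passed the threshold of limma over all 195014 probe sets, of which 0.0133% passed (0.00564% higher, 0.00769% lower), and 27 of the 353 had an unadjusted p under 0.05 (6.76% over all probe sets). Groups did not overlap in the index for 26 of the 353, or 7.37%, against 4.12% of all probe sets (2.07% higher, 2.05% lower). diffSplice, whose variance is shared by all probe sets of a gene, called 5 of the 353, and 506 (0.259%) of all probe sets. The 5 were 2 of Rasgrf1 and 1 each of Rap1gap, Nf1 and Rasgrp1. The median absolute index difference was 0.10 log2 over the members and 0.12 log2 over all probe sets. The exons under these probe sets were not analysed here.

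**Figure D3:**
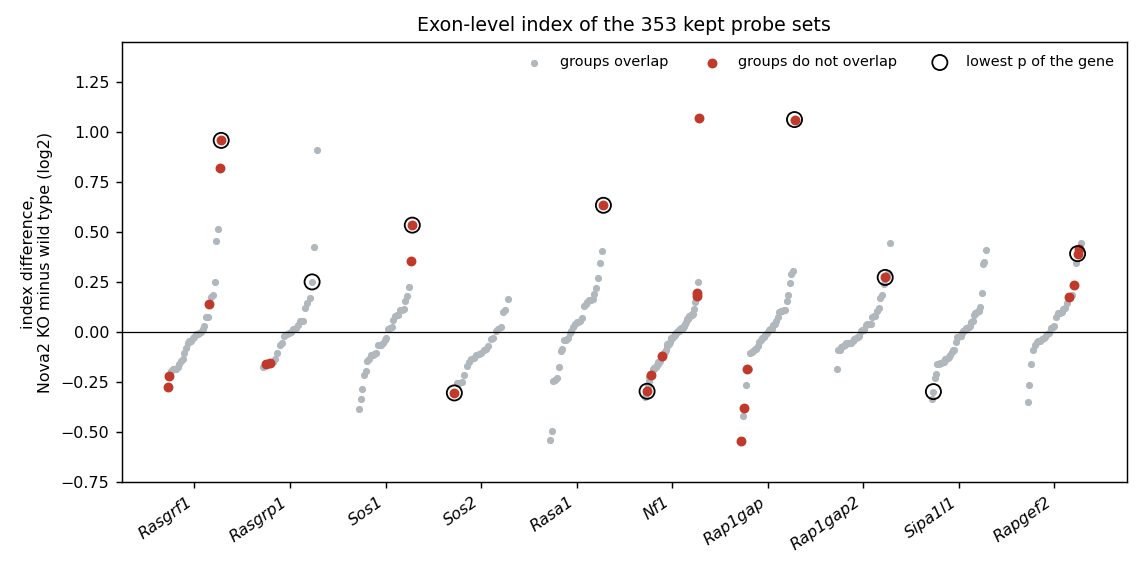
Difference of the exon-level index (Nova2 KO minus wild type, log2) for the 353 kept probe sets, sorted within each gene; red points have groups that do not overlap and a circle marks the probe set with the lowest p of its gene. Probe sets of Rap1gap (1.06 log2), Nf1 (1.07 log2) and Rasgrf1 (0.96 log2) lie farthest above 0.

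The Rap1gap probe set 4750553 had the lowest p of the gene and was brighter in Nova2 KO while the gene value was not. Its signal was 9.29, 9.27, 9.03 and 8.81 log2 on Nova2 KO arrays 1 to 4, against 7.96, 8.29, 8.57 and 7.67 log2 on wild type arrays 1 to 4. All Nova2 KO arrays were above all wild type arrays. The means were 9.10 ± 0.23 log2 in Nova2 KO and 8.12 ± 0.39 log2 in wild type (SD, n = 4 each), a difference of 0.97 log2. Relative to the gene the index differed by 1.06 log2 (SE 0.15), or 2.09-fold, and it ranged from 0.96 to 1.19 log2 over 18 other settings. It was the sole member probe set whose index differed by 1 log2 or more with groups apart in both the index and the signal. Over all probe sets, 0.0441% met the same criterion. With groups apart in the index alone, 2 member probe sets (the other of Nf1) and 0.059% of all probe sets differed by 1 log2 or more. Under limma the index passed in none of the 17 other limma settings.

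A pair of further Rap1gap probe sets went the other way. Probe set 5018317 read 6.02, 6.39, 6.13 and 6.29 log2 on Nova2 KO arrays 1 to 4, against 7.09, 6.98, 6.87 and 6.43 log2 on wild type arrays 1 to 4 (index difference -0.54 log2, SE 0.14). Probe set 4361539 read 7.19, 7.28, 6.92 and 6.91 log2 on Nova2 KO arrays 1 to 4, against 7.32, 7.71, 7.63 and 7.52 log2 on wild type arrays 1 to 4 (index difference -0.38 log2, SE 0.10). In both the groups were apart in signal and in index, with the nearest arrays 0.038 log2 apart in signal. The other 33 kept probe sets of Rap1gap had index differences between -0.42 and 0.31 log2. In its paralog Rap1gap2 index differences ran from -0.19 to 0.45 log2 over 34 probe sets, and the leading one (5225526) differed by 0.27 log2 (SE 0.092) in the index and by 0.097 log2 in the signal.

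In Rasa1 the leading probe set, 4679345, read 7.26, 7.32, 7.68 and 7.67 log2 on Nova2 KO arrays 1 to 4, against 6.80, 6.82, 6.71 and 6.31 log2 on wild type arrays 1 to 4. The groups were apart, with a signal difference of 0.83 log2 and an index difference of 0.63 log2 (SE 0.16). In Sos1 the leading probe set, 5441405, read 7.60, 7.65, 7.71 and 7.14 log2 on Nova2 KO arrays 1 to 4, against 6.61, 6.88, 7.23 and 6.73 log2 on wild type arrays 1 to 4 (index difference 0.54 log2, SE 0.12). Its index did not overlap but its signal did. A further Sos1 probe set, 5466247, was apart in both (signal difference 0.49 log2, index difference 0.36 log2).

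The leading probe set of Rasgrf1, 4446146, lay close to the filter value. It read 6.45, 6.78, 6.88 and 6.16 log2 on Nova2 KO arrays 1 to 4, against 5.98, 6.51, 6.06 and 6.52 log2 on wild type arrays 1 to 4, with overlap. Its index differed by 0.96 log2 (SE 0.15) while its signal differed by 0.30 log2, the remainder being the lower gene value. The second Rasgrf1 probe set that diffSplice called, 4650383, was at 0.82 log2 in the index and 0.16 log2 in the signal, again with overlapping signals.

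In a pair of probe sets 1 array stood apart from the rest. The Nf1 probe set 5295335 read 10.63 log2 on Nova2 KO 1 and 8.03, 7.87 and 7.94 log2 on Nova2 KO arrays 2 to 4, against 7.21, 7.73, 7.95 and 7.44 log2 on wild type arrays 1 to 4. The Rasgrp1 probe set 4364523 read 10.14 log2 on Nova2 KO 3 and 8.02, 8.46 and 7.73 log2 on Nova2 KO arrays 1, 2 and 4, against 7.96, 7.89, 8.02 and 7.57 log2 on wild type arrays 1 to 4. In both probe sets the other 3 Nova2 KO arrays overlapped the wild type range. Without the high array the signal difference was 0.37 log2 in Nf1 and 0.21 log2 in Rasgrp1. The index difference without it was 0.42 log2 in Nf1 and 0.44 log2 in Rasgrp1. With all arrays their index differences (1.07 log2, SE 0.55, and 0.91 log2, SE 0.42) have standard errors several times those of the other probe sets described. Neither was the leading probe set of its gene, and both are named after their values were seen.

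**Figure D4:**
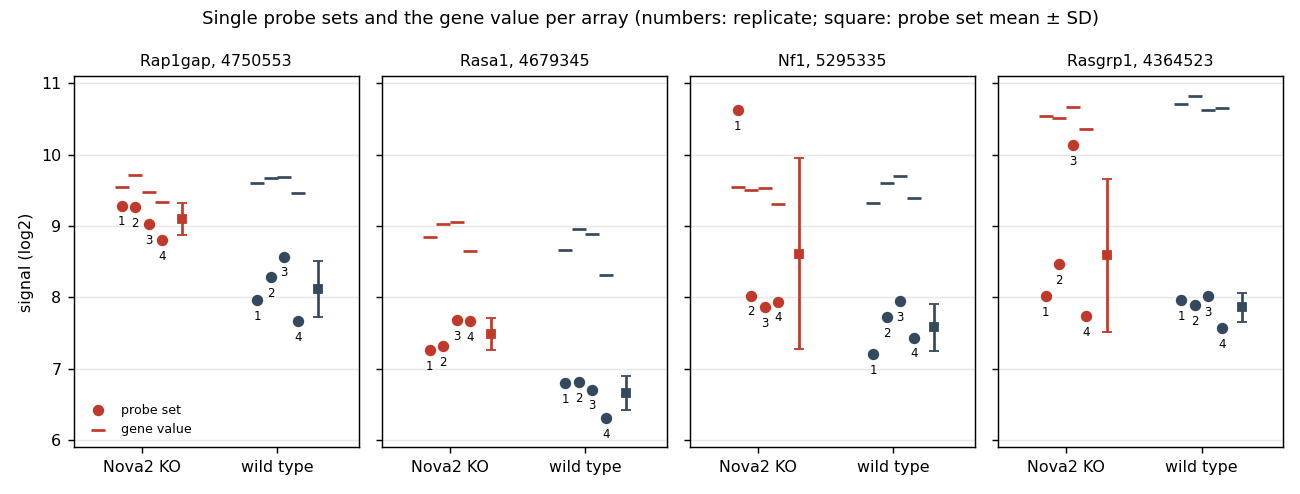
Signal (log2) of 4 probe sets on each array (circles, numbered by replicate; squares with whiskers are mean ± SD, n = 4) and the gene value of the same array (dashes), with Nova2 KO left of wild type in each panel. The Nova2 KO arrays lie above the wild type arrays in Rap1gap and Rasa1, while in Nf1 and Rasgrp1 the array Nova2 KO 1 and the array Nova2 KO 3 stand alone.

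Rapgef2 had 4 of 31 probe sets (12.9%) whose index did not overlap, all higher in Nova2 KO, where 2.07% of all probe sets were higher without overlap. The leading one, 4320307, read 10.64, 10.65, 10.91 and 10.65 log2 on Nova2 KO arrays 1 to 4, against 10.56, 10.44, 10.62 and 10.36 log2 on wild type arrays 1 to 4 (index difference 0.39 log2, SE 0.11). Probe set 5067751 read 10.29, 10.37, 10.56 and 10.46 log2 on Nova2 KO arrays 1 to 4, against 10.14, 10.22, 10.08 and 10.28 log2 on wild type arrays 1 to 4 (index difference 0.42 log2). Signals of both were apart by a narrow margin, 0.015 log2 or less at the nearest arrays. The leading probe sets of Nf1 (4542778), Sos2 (5474073), Sipa1l1 (5079686) and Rasgrp1 (5500175) had index differences of -0.30, -0.30, -0.30 and 0.25 log2, with overlapping signals.

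The rest of the pathway was taken from 8 lists of Ras and Rap genes outside the 10, with 77 genes listed and 68 measured. None passed the threshold (limma), 8 had an unadjusted p under 0.05 (11.6% of all genes did), and 34 were higher and 34 lower, with a median of -0.0074 log2. Groups did not overlap for 3 of 68 (4.41%, against 7.56% of all genes): Rap1b, Mapk3 and Dab2ip. Rap1b, a GTPase that Rapgef2 and Rap1gap act on, was at 10.64, 10.81, 10.71 and 10.80 log2 on Nova2 KO arrays 1 to 4, against 10.45, 10.43, 10.35 and 10.42 log2 on wild type arrays 1 to 4 (difference 0.33 log2, SE 0.090, limma adjusted p = 0.238). Mapk3, which encodes the kinase ERK1 at the end of the Ras cascade, was at 10.77, 10.55, 10.84 and 10.83 log2 on Nova2 KO arrays 1 to 4, against 10.37, 10.24, 10.38 and 10.53 log2 on wild type arrays 1 to 4 (difference 0.37 log2, SE 0.11, limma adjusted p = 0.251). In Dab2ip, a Ras GTPase-activating factor, the difference was -0.14 log2 (SE 0.10, limma adjusted p = 0.641).

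The lists of exchange factors, GTPase-activating factors and effectors had medians below 0, and the GTPases, the adaptors and the feedback genes had medians above 0. Over all genes the median was 0.022 log2, with quartiles at -0.084 and 0.13 log2. The median difference was -0.062 log2 over 3 further Ras exchange factors, -0.15 log2 over 6 Ras GTPase-activating factors, -0.11 log2 over 6 Rap exchange factors and -0.081 log2 over 4 Rap GTPase-activating factors. It was 0.048 log2 over 10 Ras and Rap GTPases, 0.099 log2 over 15 adaptors, -0.035 log2 over 14 effectors and 0.058 log2 over 10 feedback inhibitors and ERK targets. No member of any of the 8 lists passed.

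Within the exchange factors, Rasgrf2, the paralog of Rasgrf1, differed by -0.062 log2 (SE 0.099), Rasgrp2 by -0.016 log2 and Rasgrp3 by -0.11 log2. Among the GTPase-activating factors, Rasa4 was at -0.30, Rasal2 at -0.21 and Rasa3 at -0.14 log2 for Ras, and Sipa1 at -0.22, Sipa1l3 at -0.090 and Sipa1l2 at -0.072 log2 for Rap. The cAMP-activated Rap exchange factors Rapgef3 and Rapgef4 (Epac) were at -0.25 and -0.11 log2, and Rapgef1 at -0.16 log2. Of the GTPases, Rap1a was at 0.30 and Rras2 at 0.25 log2. The adaptors Grb2, Frs3 and Gab2 were at 0.29, -0.24 and 0.17 log2, the effectors Map2k1 and Tiam1 at -0.20 and -0.14 log2, and the ERK-linked genes Etv1, Spred3 and Spred1 at 0.13, -0.16 and 0.085 log2. Over all 68 measured genes the limma adjusted p lay at 0.238 or higher.

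**Figure D5:**
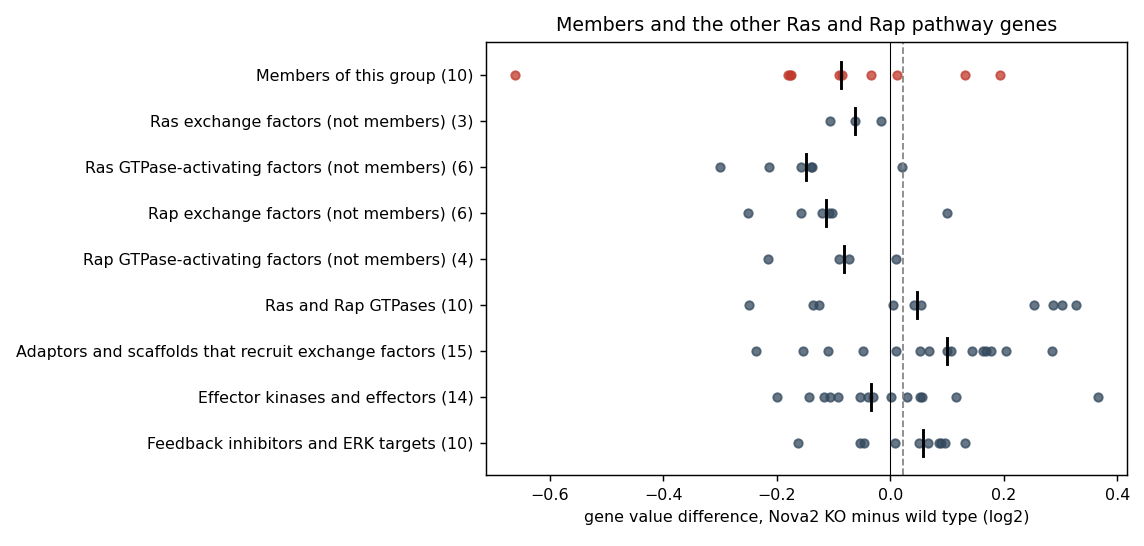
Gene value differences (Nova2 KO minus wild type, log2) of the 10 members (red, top) and of the 68 measured genes of 8 pathway lists (dark); each point is a gene, the number of genes stands in parentheses, the short bar is the list's median and the dashed line the median over all genes (0.022 log2). Rasgrf1 (-0.66 log2) is the point farthest from 0, and the pathway genes lie between -0.30 and 0.37 log2.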

How the data were processed

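Total RNA of 8 cortices (4 Nova2 KO, 4 wild type) was isolated by Trizol, and targets were made by the Affymetrix WT sense assay, per the labels' protocols. The deposited values are log2 probe set signals that the authors made with PLIER, per the submitters' processing notes; background correction, normalization, build and the choice of the 391597 probe sets are not given in the sources used here. Their floor lay at about 4 log2, 0.991% to 3.34% of an array lay within 0.01 of it, and they were used as deposited. Arrays have no depth, and 4 per group limit the precision.

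Probe sets were named from the platform annotation (228454 with 1 gene, 3443 with several, 159700 unnamed here), with 2203 of the symbols updated through synonyms in RefSeq's gene list (GRCm38.p6). Probe sets above the 25th percentile of the mean over arrays were kept (293697, of which 198965 name 1 gene). Gene values needed 3 kept probe sets and the index 5. Fits used limma 3.58.1 in R 4.3.3 with data.table (1.17.8), and figures used Python 3.11.15 and matplotlib 3.10.9. The fits were also run on simulated data with independent noise and added differences. Those data held no shift shared by arrays, so they do not cover such shifts. For each member the probe set with the lowest index p was named, with any other at 1 log2 or more whose groups were apart in index and signal; of each pathway list the 3 genes with the lowest p were named. All other probe sets named, and Dab2ip, were chosen after their values were seen. The members and lists were chosen with earlier results of these data known. The design text gives 1 array per biological replicate.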

Additional observations from a re-analysis of the deposited data

Results flagged for a closer look

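Of 132 groups of 4 arrays examined (gene values, leading indices and signals of the genes and probe sets named), 5 held an array whose gap to its nearest neighbour exceeded the critical value of Dixon's test, and chance flags about 1 in 20. The Nf1 probe set 5295335 was at 10.63 log2 on Nova2 KO 1, against 7.87 to 8.03 log2 on the other Nova2 KO arrays. The Nf1 gene value was at 9.31 log2 on Nova2 KO 4, below 9.51 to 9.54 log2 on the other Nova2 KO arrays. The Rapgef2 probe set 4320307 was at 10.91 log2 on Nova2 KO 3, above 10.64 to 10.65 log2 on the other Nova2 KO arrays. The Rasgrp1 probe set 5500175 was at 10.26 log2 on wild type 4, below 10.53 to 10.59 log2 on the other wild type arrays. The Rapgef1 gene value was at 9.59 log2 on wild type 2, below 9.65 to 9.66 log2 on the other wild type arrays.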

How the results depend on the processing

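The differences of the 10 gene values and 10 leading indices were recomputed under up to 18 other settings, 347 values in all, and 336 stayed on their side of the threshold, with sign changes in Sos2 (8 of 17 settings) and Nf1 (2 of 17) gene values. The 9 that lost a call were those of Rasgrf1, whose gene value stayed between -0.74 and -0.58 log2, and the 2 that gained one were the Rap1gap and Rasgrf1 leading probe sets under diffSplice. Leaving out single arrays gave 6 to 16 genes, 10 to 16 index probe sets and 0 to 1 members past the threshold. Of the members, 0 passed at the gene level with median centring and 0 without both arrays numbered 4, which also gave 12 genes and 2 index probe sets over the whole table. Median centring gave 13 genes. The index count of 26 became 15 without a filter, 43 with the mean over probe sets, 16 with the Xist kind of the array as a covariate and 506 with diffSplice, which called 2 of the members' leading probe sets. The replicate number as a block gave 80 genes, 4 index probe sets and 1 member. The deviations of same-numbered arrays correlated at 0.143, 0.332, 0.0237 and 0.565, all above 0. Of the 4 arrays, 2 correlated best with their own number. Array medians were 7.24, 7.37, 7.30 and 7.06 log2 on Nova2 KO arrays 1 to 4, and 7.22, 7.37, 7.37 and 7.02 log2 on wild type arrays 1 to 4. The labels name no pairs, so the main fit has no term for the number. What same-numbered arrays share was not tested. The leading probe sets of Rasgrf1, Rasa1 and Sos1 were too dim for the filter at the 50th percentile and have no value there. The causes were not tested.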
